A study of Bos taurus with 42 samples.

Results

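The genes *GATA1*, *KLF1*, *HEMGN*, *LYL1* and *PLEK*, known from blood cells, were followed through the cerebrum, liver and hind limb muscle of bovine fetuses. They were the rows of the raw count table whose Ensembl identifiers the study's supplementary tables pair with these 5 symbols (ENSBTAG00000003184, ENSBTAG00000006083, ENSBTAG00000032206, ENSBTAG00000019329 and ENSBTAG00000009658, in the order given), 5 of 22664 genes in the table. All 5 had counts in the livers, and each was far higher there than in the other tissues.

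The fetuses were Angus-cross calves with a common sire, taken at day 50 of gestation. The dams of the control group (CON, 7 fetuses, 6 males and 1 female) were fed 100% of their requirement, and the dams of the restricted group (RES, 7 fetuses, 5 males and 2 females) received 60% of the control intake. Each of the 14 fetuses gave 1 library per tissue, 42 in all, from bulk tissue RNA, so a smaller number of blood cells and less RNA per blood cell cannot be told apart. Total counts ran from 6658218 to 12741299 in the liver, from 4145093 to 7576159 in the cerebrum and from 5384018 to 7592149 in muscle.

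The fetal liver is the main site of blood formation before the bone marrow takes over, and it holds erythroid precursors, megakaryocytes and myeloid cells among the hepatocytes. *GATA1* encodes a zinc finger transcription factor required for red cell and megakaryocyte development. *KLF1* encodes a Krüppel-like factor that activates globin, haem and membrane genes during red cell maturation. *HEMGN* encodes hemogen, a nuclear protein of haematopoietic cells. *LYL1* encodes a basic helix-loop-helix factor related to *TAL1*, which acts in blood progenitors and is also found in endothelial cells. *PLEK* encodes pleckstrin, a protein kinase C substrate of platelets and leukocytes, and is a signalling protein rather than a transcription factor. In the RefSeq gene table (ARS-UCD2.0), *KLF1* and *LYL1* lay on the same chromosome with 8 protein-coding genes between them.

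Some libraries stood apart. Mitochondrially encoded genes took 67.7% of the counts in the liver of RES fetus 1, 44.9% in CON fetus 2, 35.6% in RES fetus 6 and 30.5% in RES fetus 33, and between 4.04% and 16.4% in the other 10 livers. Levels are given as CPM, counts set on a common library size, and were scaled with trimmed mean of M-values (TMM) factors over the 42 libraries. The factor of the RES 1 liver was 0.189, against 0.418 to 0.816 among CON livers and up to 0.792 among RES livers, so that values in this library depend strongly on the scaling. The cerebrum of RES fetus 1 also stood apart. It held 180.5 normalized CPM of *HBA* (alpha globin), 81.97 of *LAPTM5* (a leukocyte membrane gene), 94.4 of *AFP* (alpha-fetoprotein of hepatocytes) and 6.16 of *MYOG* (myogenin), where the medians of the 14 cerebra were 5.91, 6.26, 2.03 and 0.0. The diet values of the members in the liver and cerebrum and the counts over the blood gene lists are given with and without these libraries.

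The tissue labels were checked against marker genes by their summed levels, with no test. The medians were 250430 normalized CPM for 18 hepatocyte genes in the liver, 2864 for 12 cerebrum genes in the cerebrum and 3838 for 12 skeletal muscle genes in muscle. Many of these genes were too low elsewhere to be tested there, although most hepatocyte and skeletal muscle genes could be tested in the cerebrum. Enough counts were found for 11 hepatocyte genes in the cerebrum and 7 in muscle, for 1 cerebrum gene in the liver and 4 in muscle, and for 3 skeletal muscle genes in the liver and 7 in the cerebrum. Some muscles held genes of the other tissues. The cerebrum genes summed to 1076 normalized CPM in the muscle of CON fetus 73, led by *STMN2*, and to 245.9 in that of RES fetus 1, where the median of the muscles was 23.2. The hepatocyte genes summed to 149.9 in the muscle of RES fetus 70, where the median was 21.5.

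Tissue levels were described first, to ask how far each regulator was limited to the blood-forming organ. *GATA1* ranged from 303.4 to 538.4 normalized CPM in CON livers (median 362.6) and from 322.1 to 1003 in RES livers (median 586.2). In the cerebrum it had 0 or 1 count in all 7 CON libraries and 0 to 21 counts in RES libraries, and in muscle it had 0 to 5 counts. A count of 0 allowed a level of up to 0.396 to 0.724 CPM across the cerebra, the value of 3 counts in each library before TMM scaling, and these limits cover counting error only. The lowest liver was 115 times the highest other library, and 99.8% of all *GATA1* counts came from the livers.

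*KLF1* followed the same order. It ranged from 475.6 to 1458 normalized CPM in CON livers (median 660.5) and from 505.9 to 2110 in RES livers (median 1309). Counts were 0 to 7 in CON cerebra, 1 to 42 in RES cerebra, 0 to 6 in CON muscles and 1 to 14 in RES muscles. The 42 counts were those of the RES 1 cerebrum, which also held the 21 counts of *GATA1*. The log2 difference between liver and cerebrum was 10.25 ± 0.38 (SE) for *GATA1* and 10.20 ± 0.42 for *KLF1*, and that between liver and muscle was 10.97 ± 0.39 and 11.16 ± 0.44. No test is given for these tissue differences, since both genes have their symbol in the study's liver table of tissue-specific genes, which was drawn from the same libraries.

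*HEMGN* lay between 721.0 and 1151 normalized CPM in CON livers (median 921.3) and between 416.1 and 1257 in RES livers (median 765.3). Outside the liver it had 5 to 23 counts in every muscle and 0 to 40 in the cerebra, the highest being those of RES fetuses 1 and 25 and CON fetus 23. The liver exceeded the cerebrum by 8.91 ± 0.42 and muscle by 9.24 ± 0.42 on the log2 scale (edgeR quasi-likelihood test, adjusted p = 4.66e-23 and 2.18e-23).

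*LYL1* was lower in read counts and the least limited to the liver. Its levels were 46.5 to 84.1 normalized CPM in CON livers (median 68.5) and 59.2 to 92.4 in RES livers (median 72.9), against 1.54 to 3.897 in the muscles and 0.0 to 2.26 in the cerebra. The liver exceeded muscle by 4.83 ± 0.22 on the log2 scale (edgeR, adjusted p = 2.53e-23). It exceeded the cerebrum by 6.97 ± 0.26, given with no test because *LYL1* was too low in the cerebrum to pass the filter on low counts there, and 93.7% of its counts came from the livers.

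*PLEK* reached 74.3 to 106.1 normalized CPM in CON livers (median 85.1) and 61.5 to 100.3 in RES livers (median 83.4). It stayed between 0.239 and 3.27 in the cerebra and between 0.322 and 1.57 in the muscles. The log2 differences were 6.24 ± 0.23 between liver and cerebrum and 6.35 ± 0.22 between liver and muscle (edgeR, adjusted p = 6.59e-27 and 3.77e-27).

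For every member, all 14 livers lay above all 28 other libraries. Of 15972 genes tested over the tissues, 13.6% had this pattern. In the fits, 38.5% of genes were called higher and 45.2% lower in the liver than in the cerebrum (83.6% in either direction, adjusted p under 0.05), and 36.6% higher and 45.5% lower than in muscle (82.0% in either direction). The members ranked from 96 (*GATA1*) to 550 (*PLEK*) among 15972 genes by their log2 difference between liver and cerebrum, and from 70 (*KLF1*) to 658 (*LYL1*) between liver and muscle. Without TMM factors the median log2 difference of all genes moved from -0.17 to -1.20 (liver against cerebrum) and from -0.21 to -1.23 (liver against muscle), and the calls higher in the liver fell from 46.01% to 23.2% and from 44.6% to 19.1% of all calls. The members' differences fell by about as much on that scale, *GATA1* to 9.15 and 9.85 and *KLF1* to 9.07 and 10.01.

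**Figure D1:**
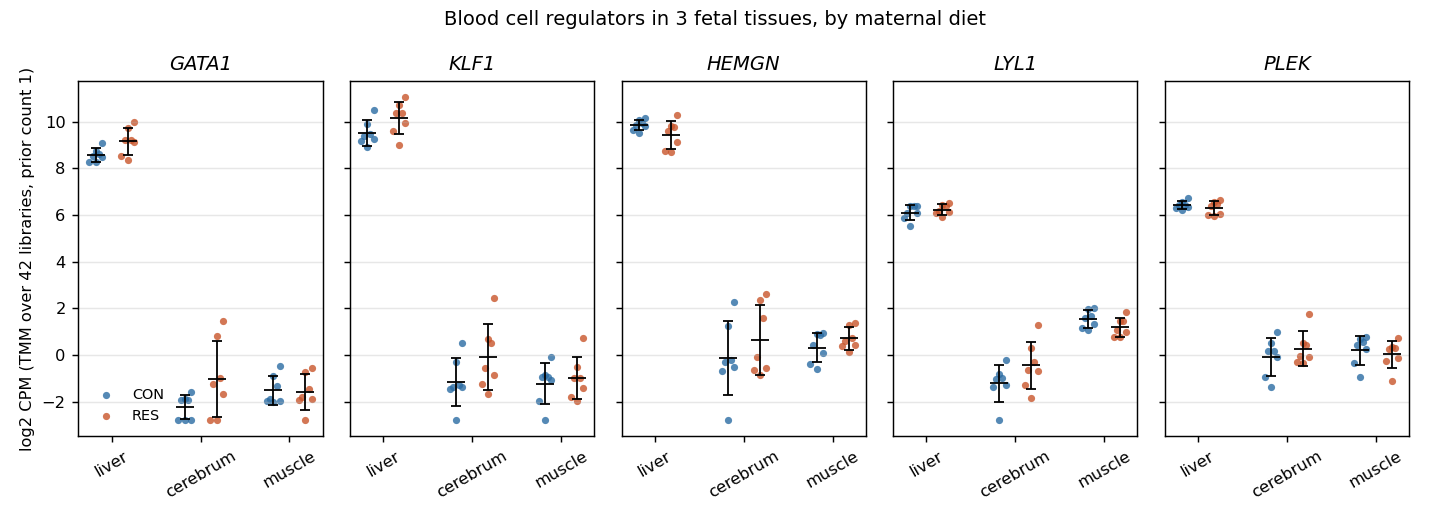
Each point is 1 library, with log2 CPM of 5 genes on the vertical axis (TMM over 42 libraries, prior count 1) and tissue on the horizontal axis, blue for CON and orange for RES. Black marks are the mean and SD of 7 libraries. All livers lie above all other libraries in every panel, and the separation is smallest for *LYL1* in muscle.

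Between the cerebrum and muscle, the largest estimate among the members was that of *LYL1*, given with no test since it had enough counts to be tested within muscle but not within the cerebrum. Its level was 0.556 ± 0.561 normalized CPM in the cerebrum and 2.53 ± 0.786 in muscle (SD, n = 14 each), with 0 to 18 counts in the cerebra and 13 to 35 in the muscles. The log2 difference was -2.13 ± 0.26. The only cerebrum that overlapped the muscles was that of RES fetus 1, at 2.26, and the log2 difference without this fetus was -2.52. *HEMGN* (0.33 ± 0.38, adjusted p = 0.457) and *PLEK* (0.11 ± 0.24, adjusted p = 0.711) did not pass the test, in a comparison where 32.2% of genes were called lower in the cerebrum, 35.9% higher and 68.1% in either direction, and the values of *GATA1* (0.72 ± 0.51) and *KLF1* (0.95 ± 0.46) rested on few counts. Without fetus 1 these came to 0.02 for *HEMGN*, -0.13 for *PLEK*, -0.21 for *GATA1* and 0.20 for *KLF1*. The levels of *HEMGN* and *PLEK* overlapped between the cerebra and the muscles. With so few counts the test cannot show that they were equal.

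The genes of endothelial cells differed in the same direction as *LYL1*. Of 10 endothelial genes with an identifier, 8 had enough counts in both tissues, and all 8 were called lower in the cerebrum than in muscle, with a median log2 difference of -1.91 where the median of all genes was 0.06. *PLVAP*, a protein of endothelial diaphragms, differed by -3.14 ± 0.31 and *SOX7*, an endothelial transcription factor, by -3.42 ± 0.34. Their summed level was 261.7 to 412.8 normalized CPM in the muscles and 43.9 to 110.1 in 13 cerebra. The RES 1 cerebrum stood at 332.7, inside the range of the muscles, as it did for *LYL1*. Of 11 leukocyte genes with enough counts in both tissues, 10 were called lower in the cerebrum, among them *CD74* and *CSF1R*, and *WAS* was called higher. The 22 leukocyte genes summed to 128.0 to 248.5 normalized CPM in the muscles and to 34.3 to 79.6 in 13 cerebra. The RES 1 cerebrum stood at 255.1. The leukocyte genes thus set these libraries apart much as the endothelial genes did. The part of either cell type in the *LYL1* difference was not tested.

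**Figure D2:**
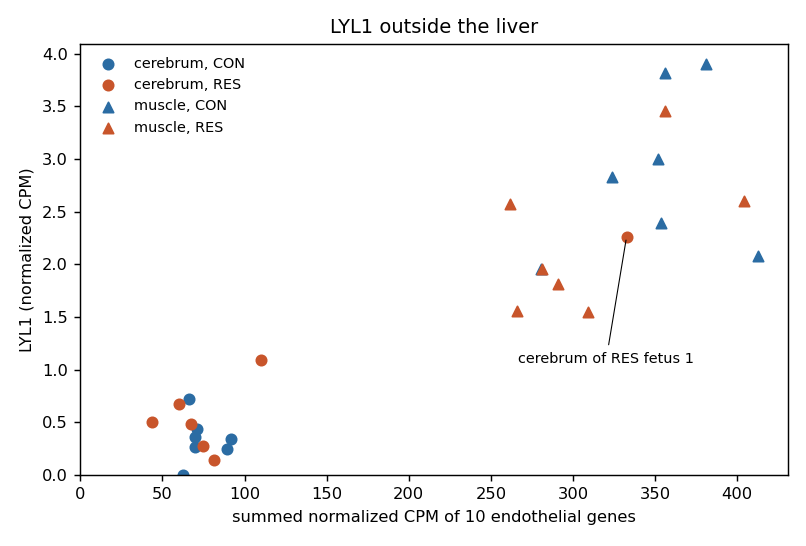
*LYL1* in normalized CPM (vertical axis) is set against the summed normalized CPM of 10 endothelial genes (horizontal axis) in 14 cerebra (circles) and 14 muscles (triangles), blue for CON and orange for RES. The muscles form 1 cloud at 261.7 CPM and above, 13 cerebra lie at or below 110.1 CPM, and the cerebrum of RES fetus 1 lies at 332.7 CPM among the muscles.

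Further blood cell genes gave the setting of these 5. Symbols existed for 17 of 27 listed erythroid and progenitor regulators, 22 of 50 red cell genes, 10 of 20 megakaryocyte and platelet genes and 22 of 35 leukocyte genes. Because symbols came from the study's tables, which include genes picked for tissue specificity in these libraries, the counts below are not independent evidence of a direction. A gene too low to be tested within the cerebrum or muscle entered the tissue fit through the liver alone, so that its call was fixed beforehand. Calls are therefore counted only over genes with enough counts within both tissues compared. They are read beside the 38.5% and 36.6% of all genes called higher in the liver than in the cerebrum and muscle, and beside medians of -0.17 and -0.21.

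Of 12 erythroid and progenitor regulators with enough counts in both tissues, 11 were called higher in the liver than in the cerebrum (median log2 difference 2.03), and of 14 such genes 9 were called higher and 4 lower than in muscle (median 1.10). *GFI1B*, a transcriptional repressor that acts within erythroid and megakaryocyte precursors, had too few counts outside the liver to be tested there. Its estimates were closest to those of *GATA1* and *KLF1*, at 10.29 ± 0.31 and 10.26 ± 0.30 over the cerebrum and muscle. *IRF8*, a factor of myeloid cells, was higher by 4.64 ± 0.17 and 3.31 ± 0.16. *STAT5B*, a signal transducer downstream of cytokine receptors, had the most counts in this list beside *GFI1B* in the liver, and it was higher by 0.69 ± 0.11 and 0.79 ± 0.11 only. The ETS factors *ETV6* and *ERG* were lower in the liver than in muscle, with log2 differences of -1.02 ± 0.12 and -1.86 ± 0.33.

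Of the 22 red cell genes, all 19 with enough counts in the cerebrum were called higher in the liver, as were all 16 with enough counts in muscle, with median log2 differences of 6.06 and 5.33. *HBA* had the most counts of them in 13 livers, at 4133 to 10614 normalized CPM, although reads of the duplicated alpha globin genes may be split between copies. *ALAS2*, the first enzyme of haem synthesis in red cells, reached 2394 to 4259 normalized CPM. *ALAD*, an enzyme of the same pathway, was higher than in the cerebrum by 6.06 ± 0.16 on the log2 scale. Of the 10 megakaryocyte and platelet genes, only *TUBB1*, the beta tubulin of platelets, had enough counts in the liver and in another tissue, and it was higher in the liver than in the cerebrum by 7.78 ± 0.27 on the log2 scale. *TREML1*, a receptor of platelet granules, had an estimate of 9.25 ± 0.32 but too few counts outside the liver to be tested there. *GP1BB*, a subunit of a platelet receptor, had log2 differences of -5.36 ± 0.45 against the cerebrum and -3.76 ± 0.51 against muscle, and it had a mean of 0.027 normalized CPM there, too few counts to be tested within the liver. Of the 22 leukocyte genes, all 11 with enough counts in the cerebrum were called higher in the liver (median log2 difference 4.89), as were 15 of 16 with enough counts in muscle (median 3.32).

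Maternal diet was then compared in the liver, to ask whether restriction changed the regulators where blood is formed. No gene passed an adjusted p under 0.05 (0 of 13527, 0.0%, edgeR), and therefore no member did, while 24.1% of genes had an unadjusted p under 0.05, 1829 higher and 1431 lower in RES. DESeq2 called 43 genes higher and 35 lower, none of them a member. The diet groups overlapped for all 5 members and for each of the 13527 genes tested (0.0% did not overlap).

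The mean of *GATA1* was 384.4 ± 80.2 normalized CPM in CON and 610.8 ± 240.5 in RES livers (SD, n = 7 each). In all, 5 RES livers, all of males, lay above every CON liver. The remaining RES livers, of fetuses 55 and 70, the only RES females, lay among the CON livers. This order depended on the scaling. On CPM of the counts outside mitochondrial genes, RES fetuses 25 (401.3) and 33 (398.6) lay below CON fetus 2 (408.7). On CPM of the whole library, RES fetuses 1 (189.9) and 33 (277.1) lay below CON fetus 68 (303.6). The log2 fold change was 0.67 ± 0.20 (edgeR, unadjusted p = 0.0044, adjusted p = 0.184). It was 0.52 without fetus 1, 0.43 without the 4 livers over 30% mitochondrial counts and 0.27 without TMM factors, each with an adjusted p of 0.348 or more. It ran from 0.52 to 0.89 as each fetus was left out, with adjusted p of 0.0634 or more.

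*KLF1* had means of 777.3 ± 334.7 normalized CPM in CON and 1244 ± 545.7 in RES livers. Here 2 RES livers exceeded all CON livers, and the highest CON value, 1458, was that of fetus 2, the CON liver with most mitochondrial counts. The log2 fold change was 0.71 ± 0.25 (edgeR, unadjusted p = 0.0137, adjusted p = 0.184). It was 0.55 without fetus 1, 0.55 without the 4 livers and 0.33 without TMM factors, and it ran from 0.55 to 0.87 as each fetus was left out, with the same lowest adjusted p.

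*HEMGN* had the opposite sign. Its means were 934.6 ± 147.7 normalized CPM in CON and 743.2 ± 302.0 in RES livers, and the log2 fold change was -0.47 ± 0.21 (edgeR, unadjusted p = 0.0352, adjusted p = 0.192). The 3 RES livers below all CON livers were those of fetuses 1 (416.1), 6 (432.7) and 33 (552.8), the 3 RES livers over 30% mitochondrial counts, whereas RES fetus 70 was above every CON liver at 1257. Without the 4 livers over 30% the log2 fold change was -0.10, and without TMM factors it was -0.73 (adjusted p = 0.390).

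For *LYL1* the means were 69.97 ± 14.0 and 75.7 ± 11.7 normalized CPM and the log2 fold change was 0.10 ± 0.16 (adjusted p = 0.685), which turned to -0.24 without TMM factors and was 0.09 without the 4 livers. For *PLEK* they were 86.4 ± 10.6 and 79.6 ± 16.2 normalized CPM with a log2 fold change of -0.14 ± 0.15 (adjusted p = 0.530), which was -0.57 without TMM factors and -0.35 without the 4 livers. The groups overlapped, with 2 RES livers above all CON livers for *LYL1* and 3 RES livers below all CON livers for *PLEK*. The median log2 fold change of all genes in the liver was -0.03 with and -0.37 without TMM factors. Relative to these medians *GATA1*, *KLF1* and *LYL1* were above and *HEMGN* and *PLEK* below the typical gene on either scale.

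**Figure D3:**
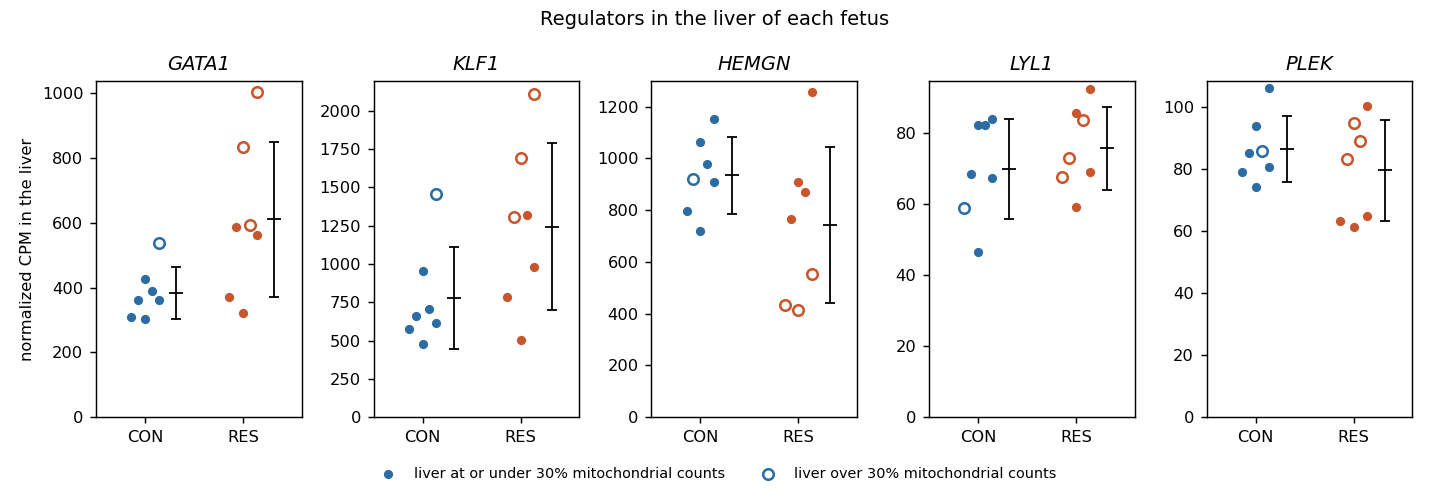
Normalized CPM of the 5 genes (vertical axes, each from 0) in the livers of 7 CON (blue) and 7 RES (orange) fetuses, with open circles for the 4 livers over 30% mitochondrial counts and black marks for the mean and SD of each group. The highest values of each group for *GATA1* and *KLF1* are open circles, and so are the 3 lowest RES values for *HEMGN*.

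The blood gene lists showed the same absence of calls in the liver. Among the 17 erythroid and progenitor regulators, 4 were higher and 1 lower in RES at an unadjusted p under 0.05, where 13.5% of all genes were higher and 10.6% lower, and the median log2 fold change was 0.10 beside -0.03 for all genes. *GFI1B* had 0.53 ± 0.18 (adjusted p = 0.184) and *STAT5B* -0.04 ± 0.22 (adjusted p = 0.913). Of the 22 red cell genes, 3 were higher and 1 lower at an unadjusted p under 0.05, and the median was -0.05. *HBA* had -0.0035 ± 0.25 and *ALAS2* 0.08 ± 0.17, with adjusted p of 0.993 and 0.743. The summed level of the red cell genes was 19254 to 27281 normalized CPM in CON and 21246 to 30272 in RES livers. Of the 9 megakaryocyte and platelet genes tested, 1 was lower and the median was -0.19, with *TUBB1* at -0.16 ± 0.13 and *CLEC1B* at 0.54 ± 0.29 (adjusted p = 0.413 and 0.247). Of the 22 leukocyte genes, 6 were higher and 18 had an estimate above 0, with a median of 0.28, and the 2 with most counts were *C1QB* at 0.16 ± 0.17 and *LAPTM5* at 0.04 ± 0.17 (adjusted p = 0.515 and 0.878). Of the 10 endothelial genes, 3 were higher and 3 lower (median 0.30), and of the 18 hepatocyte genes 2 were higher (median -0.17).

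The livers with most mitochondrial counts also had most of the leukocyte and endothelial genes among RES livers. The leukocyte genes summed to 2524, 2149 and 1791 normalized CPM in RES fetuses 1, 33 and 6 and to at most 1501 in the other livers, and CON fetus 2 stood at 1131. The endothelial genes summed to 1405, 1051 and 1204 in the same 3 RES livers and to at most 780.2 in the others, the highest of these being CON fetus 2. Without the 4 livers over 30% mitochondrial counts, 0 leukocyte genes were higher and 1 lower at an unadjusted p under 0.05 (median -0.09), and 0 endothelial genes were higher and 3 lower (median -0.13), where 3.54% of all genes were higher and 3.32% lower. On the same 10 livers 2 regulators were higher and 0 lower (median 0.03), 0 red cell genes were higher or lower (median 0.15), 2 of the 9 megakaryocyte and platelet genes were lower (median -0.27) and 0 hepatocyte genes were higher (median -0.35). The part of leukocytes, endothelial cells and the mitochondrial share in the member values was not tested.

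The 5 genes were next compared over the 14 livers, to describe how they varied together. *GATA1* and *KLF1* varied together (log2 CPM, TMM over the 14 livers, Pearson r = 0.944, Spearman rho = 0.916, two-sided permutation test over 100000 pairings, adjusted p = 0.0001 and 0.0002 over 10 pairs). The unadjusted p of r, 1e-05, is the smallest these permutations can give. The permutations take no account of the scaling and the mitochondrial share, which can move many genes together over these livers. The value was 0.906 without the 2 livers farthest from the median of *GATA1*, 0.932 within CON and 0.955 within RES (exact permutation p = 0.00377 and 0.00278). *HEMGN* ran against both. Its r was -0.813 with *GATA1* and -0.796 with *KLF1* (rho = -0.727 and -0.763, permutation test, adjusted p of r = 0.00203 for each and of rho = 0.0145 and 0.0113). Without the 2 livers farthest from the median these came to -0.538 and -0.601 (permutation p = 0.0697 and 0.0366). This omission also narrows the range and the number of livers, so it cannot decide whether either relation rests on them. With diet and sex means removed r was -0.637 and -0.587, and without the 4 livers over 30% mitochondrial counts -0.404 and -0.591, none of them past the threshold (permutation test, adjusted p = 0.0771, 0.0944, 0.411 and 0.145). Within CON livers r was -0.176 and -0.362, and within RES livers -0.883 and -0.901 (exact permutation p = 0.709, 0.430, 0.00972 and 0.00536), and the difference between diets was not tested. The other 7 pairs, all with *LYL1* or *PLEK*, had r between -0.259 and 0.186, and none passed (lowest adjusted p of r, 0.805, permutation test). Without the 4 livers, however, *KLF1* and *PLEK* had r = -0.803 and *HEMGN* and *PLEK* 0.759 (permutation test, adjusted p = 0.0264 and 0.0390). Within diets, *HEMGN* and *PLEK* had r = 0.860 in CON and -0.155 in RES (exact permutation p = 0.0125 and 0.740).

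The mitochondrial share of the library moved with these values, and this was examined after the data had been seen, for 6 relations. Over the 14 livers the mitochondrial percentage had r = 0.839 with *GATA1*, 0.875 with *KLF1*, -0.746 with *HEMGN*, -0.280 with *LYL1* and 0.116 with *PLEK* (rho = 0.837, 0.912, -0.754, -0.446 and -0.266). Adjusted p of r by permutation was 0.00123, 6e-05, 0.0054, 0.393 and 0.699, in the same order. Without the 2 livers farthest from the median percentage r was 0.809, 0.851 and -0.907 for *GATA1*, *KLF1* and *HEMGN*. Within CON livers it was 0.888, 0.932 and -0.220, and within RES livers 0.842, 0.839 and -0.864 (exact permutation p = 0.00734, 0.00615, 0.623, 0.00754, 0.0161 and 0.00575). Among the 10 livers at or under 30% it was 0.549, 0.765 and -0.646 (permutation p = 0.101, 0.0103 and 0.0452), and -0.671 for *LYL1* and -0.719 for *PLEK* (permutation p = 0.0316 and 0.0230). On CPM of the counts outside mitochondrial genes, with no TMM factor, r was 0.757, 0.816 and -0.799. On that scale it was -0.585 for *LYL1* (permutation p = 0.0280) and -0.349 for *PLEK*, whose rho was -0.640 (permutation p = 0.0162). On CPM of the whole library r was -0.380 for *GATA1* and 0.052 for *KLF1* (rho = -0.037 and 0.473). On this scale it was -0.929 for *HEMGN*, -0.917 for *LYL1* and -0.912 for *PLEK*. Mitochondrial counts are part of that total, which lowers every other gene as their share rises. Values on this scale therefore cannot decide whether the relations hold. The cause of these values was not tested. The share itself differed between the diets, with medians of 5.84% in CON and 12.6% in RES and overlapping ranges. All 12 mitochondrially encoded genes had an estimate above 0 in RES liver, with a median log2 fold change of 1.75, and 5 were higher at an unadjusted p under 0.05, where 13.5% of all genes were higher. None passed after adjustment (lowest adjusted p = 0.191, *ND2*, edgeR), and without RES fetus 1 the median was 0.68 and 0 were higher. RNA integrity was not given per library, and the part of the mitochondrial share in the diet values was not tested.

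A ratio of counts of 2 genes within a library does not depend on its scaling. *HEMGN* had 1.71 to 3.44 counts per *GATA1* count in CON livers (median 2.51) and 0.415 to 3.902 in RES livers (median 1.31). *KLF1* had 1.54 to 2.71 counts per *GATA1* count in CON livers (median 1.89) and 1.57 to 2.34 in RES livers (median 2.10). The first ratio thus varied over a far wider range among RES livers than the second, with the low end made by fetuses 1 (0.415), 6 (0.519) and 33 (0.930). The ratio of *KLF1* also moved with the mitochondrial share. It was 2.03 to 2.71 in the 7 livers with 12.5% to 67.7% mitochondrial counts and 1.54 to 1.95 in the 7 livers with 4.04% to 9.61%, a relation that was not tested. The log2 ratio of *HEMGN* to *GATA1* was 1.29 ± 0.40 in CON and 0.28 ± 1.15 in RES (SD, n = 7 each), a difference of -1.01 (two-sided exact permutation test, p = 0.0501, chosen after the data were seen). It was -0.31 without the 4 livers over 30% mitochondrial counts (6 CON and 4 RES, exact permutation p = 0.367) and -1.49 among males only (6 and 5, exact permutation p = 0.00216). It passed without RES fetus 55 (-1.17, exact permutation p = 0.0321) or RES fetus 70 (-1.29, exact permutation p = 0.00583), the only RES females. These permutations took no account of sex. The log2 ratio of *KLF1* to *GATA1* differed by 0.04 (exact permutation p = 0.749). The log2 ratio of *HEMGN* to *GATA1* had r = -0.833 with the mitochondrial percentage (rho = -0.851, permutation test, adjusted p = 0.00146 and 0.00082), -0.737 within CON and -0.879 within RES (exact permutation p = 0.00139 and 0.00317).

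**Figure D4:**
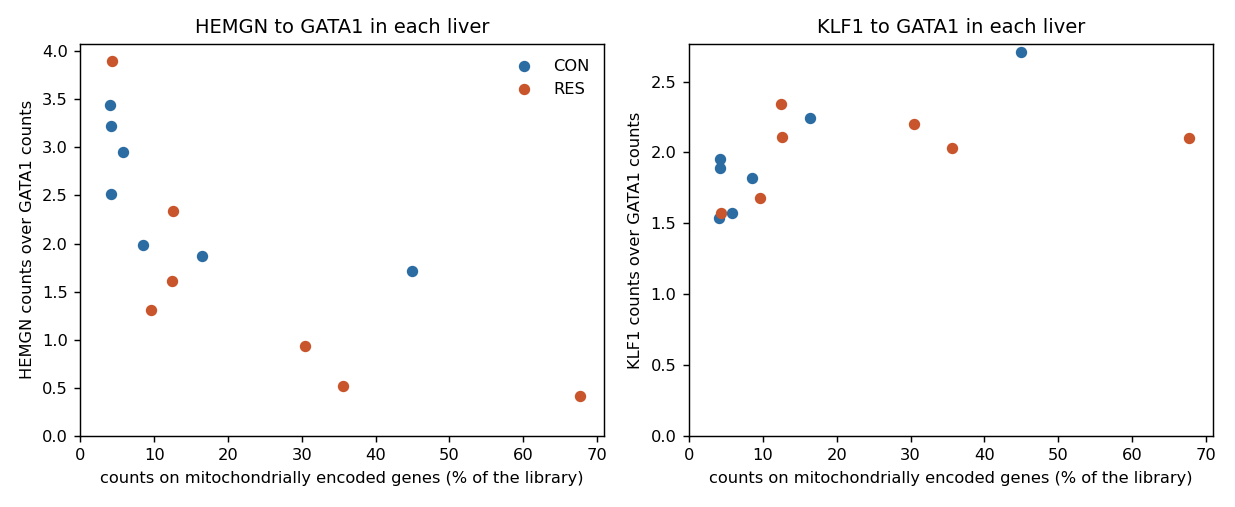
Counts of *HEMGN* (left) and *KLF1* (right) per count of *GATA1* in each of 14 livers (vertical axes, from 0) are set against the percentage of counts on mitochondrially encoded genes, blue for CON and orange for RES. The ratio of *HEMGN* is 3.902 in RES fetus 70 at 4.34% and 0.415 in RES fetus 1 at 67.7%. The fall between is not steady, with 0.519 in RES fetus 6 at 35.6% and 1.71 in CON fetus 2 at 44.9%. The ratio of *KLF1* is 1.54 to 1.95 in the 7 livers under 10% and 2.03 to 2.71 in the other 7.

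By Pearson r of log2 CPM over the 14 livers, among 4486 other genes with a symbol, those most like *GATA1* were *DOC2G* (0.977), *MRPS25* (0.977), *IFRD2* (0.966), *PIH1D1* (0.961) and *ZDHHC12* (0.959). *KLF1* shared *DOC2G* (0.985) and *PIH1D1* (0.984) with it, beside *ST6GALNAC4* (0.991), *TPRA1* (0.981) and *SDHB* (0.981), which encodes a subunit of succinate dehydrogenase. Those most like *HEMGN* were *BMI1* (0.967), of the polycomb repressive complex, *CCT2* (0.960), of the cytosolic chaperonin, *ATIC* (0.944), of purine synthesis, *MAPRE1* (0.943), which binds microtubule ends, and *ODC1* (0.941), of polyamine synthesis. *DOC2G* and *IFRD2* were also concentrated in the liver, at means of 170.5 and 422.7 normalized CPM against 4.69 and 11.2 in the cerebrum, whereas *BMI1* had 11.5 in the liver and 73.4 in the cerebrum. Of the 5 genes most like *HEMGN*, 4 had a lower mean in the liver than in the cerebrum, and *ODC1*, at 625.4 and 284.7, did not. For *LYL1* the leading genes were *MAPKAPK2* (0.863), *KHSRP* (0.838), *PIM1* (0.789), *SMYD4* (0.774) and *DOP1A* (0.764), and for *PLEK* they were *CD302* (0.898), *PCYT1A* (0.840), *NPTX1* (0.815), *PIK3CG* (0.804) and *TRAPPC9* (0.796). Without the RES 1 liver the 5 values stayed at 0.934 or more for *GATA1*, at 0.974 or more for *KLF1* and at 0.919 or more for *HEMGN*. Without the 4 livers over 30% mitochondrial counts the lowest was 0.876 for *GATA1* (*ZDHHC12*) and 0.942 for *KLF1* (*SDHB*). Those of *HEMGN* fell to 0.715 for *ODC1*, 0.816 for *ATIC* and 0.832 for *CCT2*. All livers share the scaling and the mitochondrial gradient described above, so that these values carry no p.

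Diet was also compared outside the liver. In the cerebrum no gene passed (0 of 15151, 0.0%, edgeR), 332 genes were higher (2.19%) and 55 lower (0.363%) in RES at an unadjusted p under 0.05 (2.55% together), and DESeq2 called 0. The diet groups of every member overlapped, and 0.0132% of genes had groups that did not. *GATA1* and *LYL1* had too few counts there to enter the fit, so that 3 of 5 members were tested. *KLF1* had 0 to 7 counts in CON and 1 to 42 in RES cerebra, and its log2 fold change was 1.79 ± 0.76 (edgeR, unadjusted p = 0.0313, adjusted p = 0.999). Without fetus 1 it was 0.85. *HEMGN* had a log2 fold change of 0.84 ± 0.75 and *PLEK* of 0.48 ± 0.48 (adjusted p = 0.999 for each), and without fetus 1 these were 0.62 and 0.0047. The highest *HEMGN* levels, 5.98, 5.03 and 4.73 normalized CPM, were those of RES fetuses 25 and 1 and CON fetus 23. *GATA1* had 21 counts in RES fetus 1 and 10 in RES fetus 33, and at most 2 in each of the other 12 cerebra.

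Genes of other tissues were also counted in these cerebra. In the RES 33 cerebrum *AFP* was 76.5 and *ALB* 42.1 normalized CPM, and in RES 25 *HBA* was 54.3, where the medians of the cerebra were 2.03, 4.45 and 5.91. Of 11 hepatocyte genes tested in the cerebrum, 7 were higher in RES at an unadjusted p under 0.05, and so were 5 of 7 skeletal muscle genes, 4 of 19 red cell genes and 1 of 8 endothelial genes, where 2.19% of all genes were higher. None of 12 regulators, 11 leukocyte genes and 2 platelet genes did so, and 0 of these list genes passed an adjusted p under 0.05. Without RES fetus 1 the counts were 4 of 9 hepatocyte genes, 0 of 6 skeletal muscle genes, 1 of 18 red cell genes and 0 of 8 endothelial genes, where 0.352% of all genes were higher, and 0 in the other 3 lists. A gene low in CON cerebra could pass the filter on low counts through RES cerebra alone, which fixes its direction beforehand. Of the 7 hepatocyte genes, *KNG1*, *FGG* and *APOB* had means of 0.470, 0.558 and 0.711 normalized CPM over the cerebra. Those of *TF*, *ALB*, *AFP* and *AHSG* were 6.78 to 26.4. Set beside the share of all genes, these counts are therefore not independent evidence of a direction. The median log2 fold change of the leukocyte genes went from 0.75 to -0.14 and that of the endothelial genes from 0.89 to 0.02. The sum of the hepatocyte genes was 6153 normalized CPM in the RES 1 cerebrum, 91.5% of it *TTR*, and the median over cerebra was 166.1. *TTR* (transthyretin) is also made by the choroid plexus of the brain and led this sum in 12 cerebra, so that the sum does not measure liver material alone. *AHSG* led it in RES fetus 33 (25.4%) and *SERPINA1* in CON fetus 2 (37.9%). The defining platelet gene *TUBB1* was at 2.38 or less in every cerebrum. The part of blood, liver or other tissue in the member counts was not tested.

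In muscle no gene passed (0 of 14947, 0.0%, edgeR), with 747 higher (5.0%) and 733 lower (4.9%) at an unadjusted p under 0.05 (9.9% together), and DESeq2 called 5 higher and 9 lower, none of them a member. *GATA1* and *KLF1* had too few counts to be tested. *LYL1* had 18 to 35 counts in CON and 13 to 30 in RES muscles, at 2.85 ± 0.782 and 2.21 ± 0.699 normalized CPM (SD, n = 7 each). The log2 fold change was -0.39 ± 0.23 (adjusted p = 0.578), and the groups overlapped (0.1% of genes had groups that did not), with 3 RES muscles below all CON muscles and 2 CON muscles above all RES muscles. Of the 10 endothelial genes, 9 had an estimate below 0 in RES muscle and 1 was lower at an unadjusted p under 0.05, with a median log2 fold change of -0.13 beside -0.01 for all genes. *HEMGN* had 0.30 ± 0.31 and *PLEK* -0.12 ± 0.30 (adjusted p = 0.737 and 0.898). The highest *KLF1* count in muscle, 14, and the highest *HEMGN* count, 23, were both those of RES fetus 70, the muscle with most counts of hepatocyte genes (41.7% of their sum *SERPINA1*). The part of these cells in the counts was not tested.

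**Figure D5:**
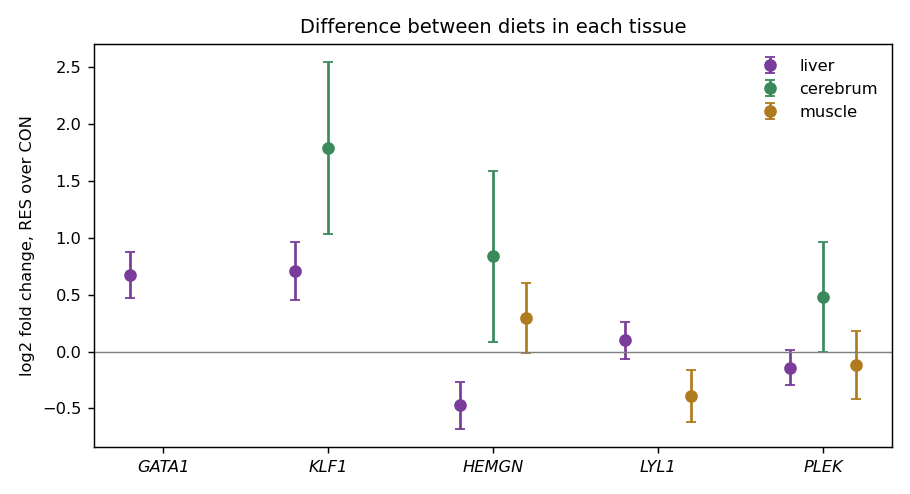
Log2 fold change of RES over CON (vertical axis) with its SE for each gene in the liver (purple), cerebrum (green) and muscle (brown). Points are missing where a gene had too few counts to be tested, no point passed an adjusted p under 0.05, and the cerebrum estimates have the widest errors.

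Whether the diet difference itself changed with tissue was tested in a fit over all 42 libraries. No gene passed for the liver against the cerebrum (0 of 15972, 0.0%, with 585 or 3.66% higher and 734 or 4.6% lower at an unadjusted p under 0.05, 8.26% together, and 9 calls by DESeq2) or for the liver against muscle (0, 0.0%, with 602 or 3.77% higher and 329 or 2.06% lower, 5.83% together, and 7 calls by DESeq2). Only members with enough counts in both tissues of a pair are given a test here. For the liver against the cerebrum the estimates were -1.14 ± 0.73 for *KLF1*, -1.28 ± 0.67 for *HEMGN* and -0.59 ± 0.42 for *PLEK* on the log2 scale (edgeR, adjusted p = 0.628, 0.601 and 0.650). Without fetus 1 these were -0.31, -0.82 and -0.17. *GATA1* had 4 counts in all CON and 36 counts in all RES cerebra, of which 21 were those of fetus 1. For the liver against muscle the estimates were 0.47 ± 0.37 for *LYL1*, -0.74 ± 0.65 for *HEMGN* and 0.10 ± 0.40 for *PLEK* (edgeR, adjusted p = 0.785, 0.807 and 0.977).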

How the data were processed

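The authors deposited raw counts per gene, made per the study's methods and processing notes from strand-specific paired-end reads mapped with STAR 2.7.3a (quality control with FastQC 0.11.8) to ARS-UCD 1.2 with the Ensembl annotation. The strand column kept is not given in the sources used here, nor is a batch. The counts were used as deposited. No 2 libraries were identical.

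Counts were tested with edgeR 4.0.16 (quasi-likelihood F test, TMM, R 4.3.3), leaving out genes under 1 CPM in at least 80% of the libraries fitted, with Benjamini-Hochberg adjustment over all genes tested and a threshold of 0.05. Diet was fitted within each tissue with fetal sex as covariate, tissues over all 42 libraries with sex and diet. Log2 CPM used a prior count of 1. SE of a fold change is its size over the square root of F. The fits were checked on simulated data. Correlations used permutations (SciPy 1.17.1). Alternatives included DESeq2 1.42.0, other filters and scalings, each fetus left out and the fetus as a block.

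Tissues of 1 fetus share its number, which pairs them by design. The correlation of deviations from the tissue means had medians of 0.067 (liver and cerebrum), 0.109 (liver and muscle) and 0.083 (cerebrum and muscle) over 14 fetuses. P-values of the diet fits within a tissue and of the liver comparisons measure the spread between fetuses of 1 sire. The main fits over all 42 libraries had no term for the fetus. Their p-values therefore measure the spread between libraries, with the libraries of 1 fetus counted as separate.

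Genes named are the 5 members, in each list the 2 with lowest adjusted p past the threshold in each direction and the 2 with the highest mean log2 CPM in the liver, and the 5 genes most like each member. A gene that this rule names is not reported here. *MARCO*, *S100A8* and *S100A9*, too low outside the liver to be tested there, were left out of the text, and calls by tissue were counted over genes that pass the filter within both tissues, chosen after seeing the data. Other genes, given as markers of single libraries, were chosen after their values were seen. Members and lists were chosen with earlier results of these data known. A planned step on promoter and protein sequences was not run. CPM carry no gene length, so statements on which gene had most counts do not rank levels between genes.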

Additional observations from a re-analysis of the deposited data

Results flagged for a closer look

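Each of 30 sets of 7 log2 CPM values, 5 genes in 3 tissues and 2 diets, was examined for a library far from the others, and chance alone flags about 1 in 20 such sets. *PLEK* in the cerebrum of RES fetus 1 was the only one, at 1.77 log2 CPM (26 counts) where the other 6 RES cerebra lay between -0.34 and 0.50, with a gap of 0.602 of the whole range against a limit of 0.568. This is the cerebrum with high *HBA*, *LAPTM5*, *AFP* and *MYOG*. Its 22 leukocyte genes summed to 255.1 normalized CPM, led by *LAPTM5*, and none of them was at 0, where the median over the 14 cerebra was 41.0. The 10 megakaryocyte and platelet genes summed to 3.14 there, where the median was 2.92, and 68% of this sum was *TUBB1*, at 2.14 normalized CPM (17 counts), whereas *GP1BB* led in 12 cerebra. *TUBB1* had a median of 0.503 over the cerebra and its highest level, 2.38, in CON fetus 46. Of these genes 4 were at 0 in RES fetus 1, as in RES fetus 52, the fewest among the cerebra, where the median was 6. The part of these cells in the *PLEK* count was not tested.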

How the results depend on the processing

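Alternatives were applied to the member differences, the counts of calls, the correlations and the ratios. Scalings without TMM factors and the omission of the 4 livers over 30% mitochondrial counts were chosen after seeing the data. DESeq2 called 78 genes by diet in the liver and 14 in muscle, and 9 and 7 for the diet difference of the liver against the cerebrum and muscle. Without TMM factors 1 gene was called for the difference against the cerebrum, also with mitochondrial genes removed (0 to 1 when each fetus was left out, the 1 without RES fetus 70). No member was called by diet under any alternative run. *LYL1* in the liver turned to -0.24 without TMM factors and -0.0094 with mitochondrial genes also removed. Without TMM factors the diet difference of the liver against muscle turned to -0.18 for *KLF1* and -0.20 for *PLEK*, and with each fetus left out it ran from -0.23 to 0.998 and from -0.14 to 0.25. Liver differences without TMM factors were 9.15 and 9.07 over the cerebrum and 9.85 and 10.01 over muscle for *GATA1* and *KLF1*, and those over muscle were 10.16 and 10.34 with mitochondrial genes also removed. *PLEK* between cerebrum and muscle ran from -0.13 to 0.22 when each fetus was left out.

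The r of *GATA1* and *LYL1* turned to 0.034 with a variance stabilizing transformation, 0.027 with mitochondrial genes removed and 0.042 without the 4 livers, and from -0.117 to 0.071 when each fetus was left out. With diet and sex means removed, *GATA1* and *HEMGN* had -0.637 and *KLF1* and *HEMGN* -0.587, neither past the threshold, *GATA1* and *PLEK* turned to 0.213 and *HEMGN* and *PLEK* to -0.076. Without the 4 livers these first 2 were -0.404 and -0.591, while *KLF1* and *PLEK* (-0.803) and *HEMGN* and *PLEK* (0.759) passed, as did *KLF1* and *PLEK* on library totals without mitochondrial genes (-0.689). When each fetus was left out, *GATA1* and *PLEK* ran from -0.332 to 0.040 and *LYL1* and *HEMGN* from -0.020 to 0.248. The log2 ratio of *HEMGN* to *GATA1* differed by -1.49 among males and from -1.29 (without RES fetus 70, exact permutation p = 0.00583) to -0.76 (without RES fetus 1) when each fetus was left out, and that of *KLF1* to *GATA1* from -0.010 to 0.13. The causes were not tested.

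With the fetus as a replicate block, *LYL1* differed between cerebrum and muscle by -2.19, and between liver and muscle by 4.87. The block changed no call of a member. Few counts limit *GATA1* and *KLF1* outside the liver, where a prior count of 5 moved the mean of *GATA1* in the cerebrum from -1.63 to -0.0057 log2 CPM.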
